A study of Homo sapiens with 4 samples.

Results

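The genes described here encode collagens, laminins and their partners in basement membranes and microfibrils, the scaffold that cells secrete around themselves. They are the 70 genes of the deposited table, out of 20289, whose symbol is that of a collagen chain (COL), a laminin chain (LAMA, LAMB, LAMC), a nidogen, a fibrillin, a fibulin, a FREM protein, FRAS1, perlecan (HSPG2) or agrin (AGRN). Of these, 40 had at least 20 counts in at least 1 library, as did 11843 genes of the whole table, and 30 did not. They were measured in SUM159-R, a paclitaxel-resistant derivative of the human triple-negative breast cancer line SUM159, with a wild-type genotype per the labels. The cells were kept for 24 h with paclitaxel at 500 nM plus enzastaurin at 2.5 µM (the combination), with paclitaxel at 500 nM, with enzastaurin at 2.5 µM, or with DMSO, the solvent control. Paclitaxel stabilises microtubules, and enzastaurin inhibits protein kinase C. The resistant cells of all 4 groups come from a culture maintained in 150 nM paclitaxel, and the labels do not say whether that drug was withdrawn before the treatments. Each condition is 1 library, so no ratio between conditions has a replicate error, and each range in parentheses after a ratio or a share is a 95% interval for counting error only.

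Collagen chains assemble in threes into a triple helix. Fibrillar collagens such as types I, III and V form the tension-bearing fibrils of stroma, and FACIT collagens such as types XII and XVI sit on fibril surfaces. Type IV collagen forms the network of basement membranes, the sheets on which epithelial and endothelial cells rest. Laminins are trimers of an alpha, a beta and a gamma chain that polymerise on the cell surface, and nidogen, perlecan and agrin tie the laminin and collagen layers together. Fibrillins and fibulins build microfibrils and elastic fibres. In breast tumours these proteins shape adhesion, stiffness and invasion.

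The libraries held 18236527 counts in the combination, 24699948 in paclitaxel, 21959564 in enzastaurin and 22576953 in DMSO. The matrix genes took 0.305% in the combination, 0.377% in paclitaxel, 0.412% in enzastaurin and 0.41% in DMSO. The mesenchymal markers VIM, FN1, CDH2, ZEB1 and AXL were all measured, with a summed level of 2372.91 to 3087.65 FPKM (the deposited unit, scaled for transcript length and depth). Of the triple-negative receptors, PGR had 0 counts in every library and ESR1 at most 3, while ERBB2 was at 19 to 24.97 FPKM. Of the 6 epithelial markers, KRT8 and KRT18 were abundant and EPCAM, CDH1, KRT19 and ESRP1 stayed under 20 counts. Of the other lists, 3 of 6 fibroblast markers (PDGFRA, PDGFRB, DCN; LUM, FAP and THY1 stayed under 20 counts), 2 of 4 endothelial markers (PECAM1 and KDR, summed list at most 1.3 FPKM) and 1 of 4 immune markers (CD68; CD3E had 0 counts) reached 20 counts. Levels are shares of sequenced RNA, so less RNA of a gene per cell, fewer cells that make it and a larger total of other RNA cannot be told apart.

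On the length-scaled FPKM scale, type VI and type VIII collagen, type XVI collagen and fibulin 1 led the group. FBLN1, a fibulin of elastic fibres and basement membranes, was at 79.61 FPKM in the combination, 98.89 in paclitaxel, 94.67 in enzastaurin and 105.14 in DMSO. COL8A1, a short-chain collagen of vessel walls, was at 57.33 FPKM in the combination, 92.49 in paclitaxel, 93.99 in enzastaurin and 103.45 in DMSO. By the highest value over the 4 libraries these are the top members, although in the combination COL8A1 lay below COL6A3 and COL6A2, and both had their lowest FPKM in the combination. COL6A3 (65.45 to 84.8 FPKM), COL16A1 (50.87 to 79.1) and COL6A2 (57.47 to 65.12) came next, followed by LAMB1 (44.3 to 48.33) and COL6A1 (31.87 to 38.96). The next genes were FBLN5 (22.78 to 30.18), LAMC1 (15.42 to 26.6), AGRN (16.54 to 24.4), COL5A1 (13.79 to 23.25), COL12A1 (12.04 to 23.14), COL4A6 (9.12 to 22.59), COL4A5 (16.48 to 22.29), LAMB2 (14.71 to 20.39), COL1A1 (10.99 to 19.8), COL18A1 (12.37 to 16.53), HSPG2 (9.46 to 15.99), COL7A1 (10.93 to 13.9) and COL4A2 (9.5 to 11.57). The ranges of LAMB1 and COL6A1 overlapped with those of no neighbour in this order, and each of the other ranges overlapped with that of a neighbour. COL3A1, COL5A2, COL4A4, COL11A2, COL17A1, COL13A1, COL9A3, COL24A1, LAMA2 and FREM2 were among the genes that stayed under 1 FPKM in every library.

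**Figure D1:**
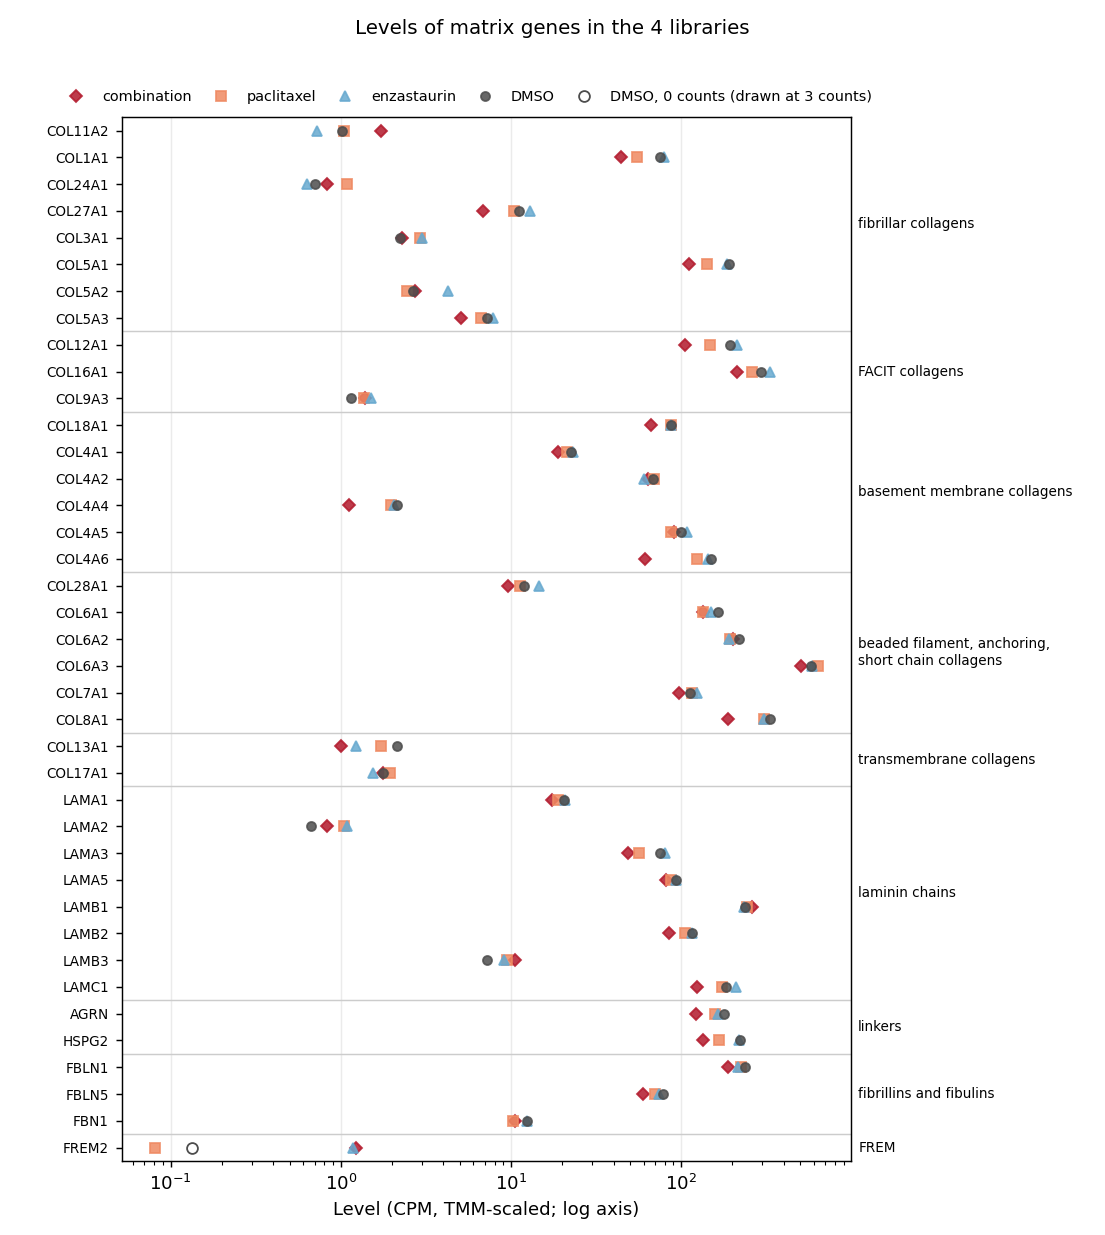
Level of 39 matrix genes with 20 or more counts, in CPM (counts scaled to a common depth with TMM, log axis), with 1 symbol for each of the 4 libraries and the genes grouped by class; an open circle marks a count of 0 drawn at 3 counts. Most genes keep their place within a narrow band across conditions, while COL4A6, COL8A1, COL12A1 and LAMC1 have their combination symbol set apart to the left.

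Type I and type V collagen had 1 chain at a high level and its usual partner close to 0. Type I collagen is normally made of COL1A1 and COL1A2 chains. COL1A1 had 794 counts in the combination, 1366 in paclitaxel, 1745 in enzastaurin and 1699 in DMSO, and COL1A2 had 3 counts in the combination, 2 in paclitaxel, 12 in enzastaurin and 5 in DMSO. COL1A2 therefore made up 0.376% (0.128 to 1.1) in the combination, 0.146% (0.0401 to 0.531) in paclitaxel, 0.683% (0.391 to 1.19) in enzastaurin and 0.293% (0.125 to 0.685) in DMSO of the counts of the pair (Wilson 95% intervals), at 0.00116 to 0.00606 times the FPKM of COL1A1. For type V collagen, which regulates fibril diameter, COL5A2 was at 0.0181 to 0.0355 times the FPKM of COL5A1. The nidogen genes NID1 and NID2, whose products bridge laminin and type IV collagen, had at most 5 counts, whereas the other linkers, perlecan and agrin, were well measured. In type IV collagen, COL4A3 had at most 7 counts and its head-to-head neighbour COL4A4 20 counts in the combination, 49 in paclitaxel, 45 in enzastaurin and 48 in DMSO. COL4A1, of which the most common type IV trimer holds more copies than of COL4A2, was at 0.276 to 0.372 times the FPKM of COL4A2. The chain that was low was low in all 4 libraries, including DMSO.

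The comparison of combination with paclitaxel addresses enzastaurin in cells under 500 nM paclitaxel. Of the 40 measured genes 30 (75%) had a log2 ratio below 0, where 52.7% of all genes did. Most of these ratios of matrix genes were small. COL4A6 was the lowest, and FREM2 was the highest. The size rule asks for a TMM-scaled difference of at least 2-fold, with an interval that does not reach equal levels and with 20 or more counts in the library on the higher side. Of the 40 genes, 1 passed it downward (COL4A6) and 1 upward (FREM2). Over all 11843 genes 4.17% passed downward and 0.574% upward. With 40 genes, 1 call in a direction is too few to set apart from these shares, and FREM2 is a low-count gene. By class, intervals lay wholly below 1 for 4 of 8 measured fibrillar collagens, 2 of 3 FACIT collagens, 4 of 6 basement membrane collagens, 3 of 6 beaded filament, anchoring and short-chain collagens, 4 of 9 laminin chains, both linkers, 2 of 3 fibrillins and fibulins, and 0 of 2 transmembrane collagens. The median log2 ratio was -0.27 over the matrix genes and -0.024 over all genes. Intervals lay wholly below 1 for 21 of 40 matrix genes (52.5%) and for 30.7% of all genes, and wholly above 1 for 3 (7.5%) and 27.8%. The matrix genes have more counts (median of the mean count 1435 against 705.5), which narrows their intervals. They are also longer, with a median transcript of 6601 bases against 3473, and ratios in this contrast were lower for longer transcripts (Spearman -0.21 across 10751 genes, which are not independent replicates). With a smooth trend in length and GC content removed, the median of the matrix genes was -0.14.

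In the basement membrane network the largest difference was in 1 gene of a neighbouring pair. COL4A6 (ENSG00000197565; hg38 chromosome X, 108155607 to 108439497, minus strand) and COL4A5 (ENSG00000188153; hg38 chromosome X, 108439844 to 108697545, plus strand) lie head to head and encode the chains of a type IV trimer found in the basement membranes of smooth muscle and some epithelia. COL4A6 was at 61.5 CPM in the combination, 124 in paclitaxel, 144 in enzastaurin and 150.4 in DMSO, and the combination library stood below the other 3 libraries. COL4A5 was at 90.8 CPM in the combination, 86.5 in paclitaxel, 108 in enzastaurin and 99.3 in DMSO, with the combination between paclitaxel and DMSO. The log2 ratio of combination over paclitaxel was -1.01 (-1.11 to -0.91) for COL4A6 and 0.071 (-0.022 to 0.16) for COL4A5. COL4A6 made up 40.4% (38.5 to 42.2) in the combination, 59% (57.6 to 60.3) in paclitaxel, 57.1% (55.8 to 58.4) in enzastaurin and 60.2% (59 to 61.5) in DMSO of the counts of the pair, a share that does not depend on how the libraries are scaled. COL4A6 was close to the 2-fold limit: with DESeq2 size factors its log2 ratio was -0.995 and with the length and GC trend removed -0.90, neither past it.

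The upstream sequences of this pair are shown because the genes share the stretch between them but not the difference. Each run gives the 250 bases before an annotated start, 5′ to 3′ on the strand of the gene, from the RefSeq promoter table for GRCh38.p14. Capitals mark CCAAT boxes (CCAAT or its reverse complement ATTGG) and GC boxes (GGGCGG or CCGCCC).
COL4A6, start nearer to COL4A5, chrX:108439459-108439708, minus strand: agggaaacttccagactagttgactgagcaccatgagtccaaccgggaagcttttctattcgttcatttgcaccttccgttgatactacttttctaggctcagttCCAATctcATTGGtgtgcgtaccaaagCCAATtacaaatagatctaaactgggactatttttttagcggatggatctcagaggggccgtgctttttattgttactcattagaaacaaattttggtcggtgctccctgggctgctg
COL4A6, second start, chrX:108438423-108438672, minus strand: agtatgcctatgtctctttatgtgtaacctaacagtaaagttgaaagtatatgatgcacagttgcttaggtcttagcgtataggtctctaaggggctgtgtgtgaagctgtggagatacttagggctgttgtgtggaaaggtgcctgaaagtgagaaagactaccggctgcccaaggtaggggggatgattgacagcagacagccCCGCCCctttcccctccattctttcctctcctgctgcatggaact
COL4A5, chrX:108439588-108439837, plus strand: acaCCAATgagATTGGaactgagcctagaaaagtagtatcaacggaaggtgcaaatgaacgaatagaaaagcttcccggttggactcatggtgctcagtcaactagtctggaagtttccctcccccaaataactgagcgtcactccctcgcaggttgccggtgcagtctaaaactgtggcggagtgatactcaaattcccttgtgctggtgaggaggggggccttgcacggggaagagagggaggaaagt
The start of COL4A5 lies 380 bases from the nearer COL4A6 start and 1416 bases from the second one, and the COL4A5 window overlaps that of the nearer start by 121 bases. The first window holds 3 CCAAT boxes and the COL4A5 window 2, of which the boxes in the overlap are the same bases read on opposite strands. The second COL4A6 window holds 1 GC box and no CCAAT box. None of the 3 windows holds an AP-1 motif (TGACTCA or TGAGTCA) or a TEAD motif (GGAATG or CATTCC). Of all 35116 promoter windows of this length, on both strands, 32% hold a CCAAT box, 42.6% a GC box, 4.2% the AP-1 motif and 11.9% the TEAD motif. The deposited counts are per gene and do not separate the COL4A6 starts.

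The other basement membrane collagens differed less, apart from COL4A4, which at its low counts had a log2 ratio of -0.83 (-1.66 to -0.052). COL4A1 (chromosome 13, 110148963 to 110307233), also head to head with its partner COL4A2, was at -0.19 (-0.39 to 0.0088) on the log2 scale in combination over paclitaxel and COL4A2 at -0.11 (-0.22 to -0.005). Their shares lay closer together, with COL4A1 at 22.7% (20.7 to 24.9) in the combination, 23.7% (22 to 25.5) in paclitaxel, 27.6% (25.6 to 29.7) in enzastaurin and 24.6% (22.8 to 26.5) in DMSO of the pair's counts. COL18A1, whose product releases the fragment endostatin, was at -0.38 (-0.48 to -0.27), from counts that are not whole numbers and that can be shared with SLC19A1 on the opposite strand.

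**Figure D2:**
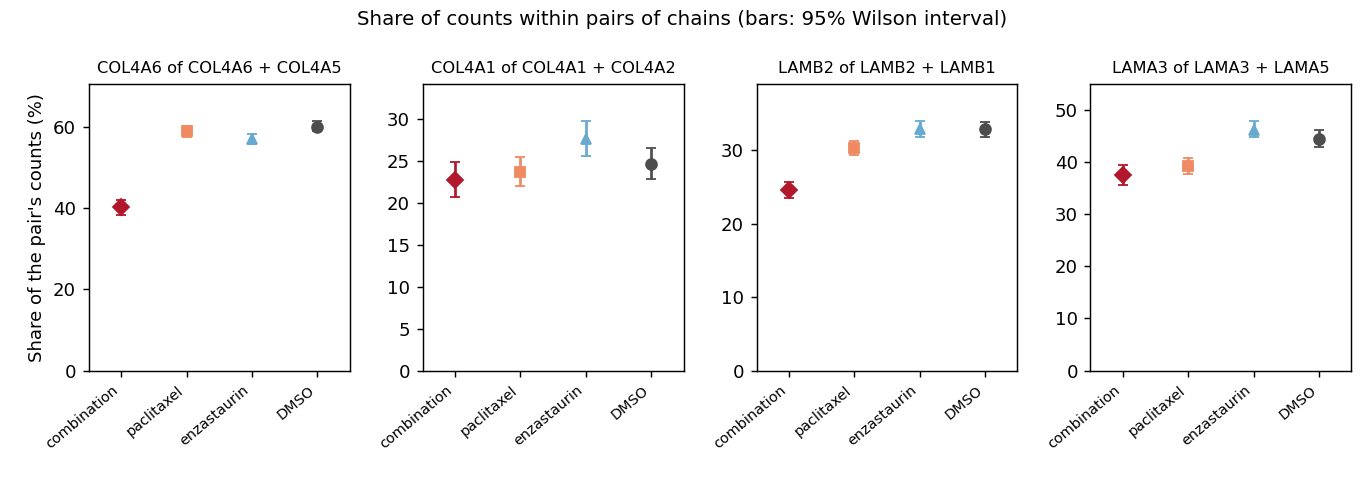
Share of the first-named gene in the summed counts of 4 pairs of chains, in percent on an axis from 0, for each library; bars are 95% Wilson intervals for counting error. The COL4A6 share is 40.4% in the combination and 57.1% to 60.2% in the other libraries, the COL4A1 share lies between 22.7% and 27.6%, and the LAMB2 and LAMA3 shares are lowest in the combination, at 24.5% and 37.5%.

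Among the laminins, the ratios differed from chain to chain. LAMC1, the gamma chain of most laminins, was at 124 CPM in the combination, 173 in paclitaxel, 209.8 in enzastaurin and 184 in DMSO. Its log2 ratio of combination over paclitaxel was -0.49 (-0.56 to -0.41), and the combination library was the lowest of the 4. LAMB2 was at -0.31 (-0.41 to -0.22) while LAMB1, the more abundant beta chain, whose exons overlap DLD on the opposite strand by 70 bases, was at 0.10 (0.049 to 0.16). LAMB2 thus took 24.5% (23.5 to 25.6) in the combination, 30.3% (29.3 to 31.2) in paclitaxel, 32.8% (31.8 to 33.9) in enzastaurin and 32.8% (31.8 to 33.8) in DMSO of the counts of these beta chains.

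LAMB3 and LAMA3 are chains of the laminin that anchors epithelial hemidesmosomes. LAMB3 had 189 counts in the combination, 236 in paclitaxel, 201 in enzastaurin and 162 in DMSO and stood at 0.55 (0.24 to 0.86) on the log2 scale for combination over DMSO. LAMA3 was lower, at 48.7 CPM in the combination, 56.4 in paclitaxel, 79.9 in enzastaurin and 75.2 in DMSO, which gives -0.63 (-0.75 to -0.51) for combination over DMSO. These chains thus lay on opposite sides of equal levels, and LAMA3 can also enter other laminins. LAMA3 took 37.5% (35.6 to 39.5) in the combination, 39.3% (37.7 to 40.9) in paclitaxel, 46.3% (44.8 to 47.9) in enzastaurin and 44.6% (43 to 46.2) in DMSO of the counts of LAMA3 and LAMA5. LAMA5 and LAMA1, the other measured alpha chains over 1 FPKM, stood close to equal levels in combination over paclitaxel, LAMA5 at -0.10 (-0.20 to -0.0023) and LAMA1 at -0.12 (-0.33 to 0.093).

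The short-chain collagen gene COL8A1 and several fibrillar and FACIT collagens were lower in the combination than in paclitaxel, each by less than 2-fold. COL8A1 was at 189 CPM in the combination, 306 in paclitaxel, 308 in enzastaurin and 334 in DMSO and its log2 ratio to paclitaxel was -0.69 (-0.75 to -0.64). COL27A1, a fibrillar collagen of cartilage, had 123 counts in the combination, 259 in paclitaxel, 286 in enzastaurin and 252 in DMSO and a ratio of -0.61 (-0.93 to -0.30). COL12A1, a FACIT collagen of tendon and tumour stroma, was at 105 CPM in the combination, 148 in paclitaxel, 212 in enzastaurin and 194 in DMSO, with a ratio of -0.49 (-0.57 to -0.41). For each of these genes the combination library was the lowest of the 4. COL5A1, at -0.34 (-0.42 to -0.26), COL1A1, at -0.32 (-0.45 to -0.19), and COL16A1, at -0.29 (-0.35 to -0.23), followed.

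The linkers were lower as well, with AGRN at -0.37 (-0.44 to -0.29) and HSPG2 at -0.32 (-0.39 to -0.25); part of the HSPG2 counts are fractional and its exons overlap LDLRAD2 on the opposite strand. FBLN1 was at -0.27 (-0.33 to -0.21), FBLN5 at -0.23 (-0.34 to -0.12) and COL6A3 at -0.32 (-0.36 to -0.29). COL6A1, at -0.0097 (-0.086 to 0.066), and COL6A2, at 0.060 (-0.0031 to 0.12), which encode the partners of COL6A3 in type VI microfibrils, did not share its difference. FBN1, the main fibrillin of microfibrils, was at 0.037 (-0.24 to 0.31). Among the low genes, COL3A1 was at -0.35 (-0.94 to 0.22), COL17A1, a hemidesmosome collagen, at -0.12 (-0.81 to 0.55) and LAMA2, the alpha chain of muscle laminin, at -0.33 (-1.35 to 0.64), all with intervals that reached equal levels.

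Enzastaurin over DMSO asks what enzastaurin did without added paclitaxel, and for most matrix genes the ratios were close to 0. The median log2 ratio was 0.0092, against -0.0023 over all genes. Ratios in this contrast were lower for genes richer in GC (Spearman -0.45) and higher for longer transcripts (0.275). The matrix genes are both longer and richer in GC. Their median with the trends removed is given only for the contrasts with the combination, so the part of the trends here is not stated. Of 40 genes 1 passed the size rule upward, where 0.439% of all genes did, and 0 downward, where 0.448% did. COL4A6, lowest in the combination, was at -0.067 (-0.14 to 0.0029) here. COL5A2, at 0.68 (0.20 to 1.17), was the largest positive ratio with an interval above 1 apart from FREM2, and COL13A1, a transmembrane collagen, was at -0.80 (-1.53 to -0.088).

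FREM2 (ENSG00000150893; hg38 chromosome 13, 38687129 to 38887131, plus strand), which works with FRAS1 and FREM1 in the complex that holds embryonic epidermis to its basement membrane, was the gene that passed. It had 22 counts in the combination, 2 in paclitaxel, 26 in enzastaurin and 0 in DMSO, so nearly all of its counts were in the libraries with enzastaurin. It was at least 6.71-fold higher in enzastaurin over DMSO and, in the separate pair of libraries, 15.2-fold higher in combination over paclitaxel, or 3.92 (1.90 to 7.06) in log2 units. FREM2 reached the count minimum through these 2 libraries only, and at most 0.07 FPKM. FRAS1 had 4 counts in the combination, 2 in paclitaxel, 6 in enzastaurin and 2 in DMSO, and FREM1 and FREM3 had 0 in every library. The epithelial marker CDH1 was higher in the same libraries, with 14 counts in the combination, 1 in paclitaxel, 14 in enzastaurin and 1 in DMSO. EPCAM had 3 counts in the combination, 5 in paclitaxel, 5 in enzastaurin and 0 in DMSO, and KRT19 had 4 counts in the combination, 0 in paclitaxel, 3 in enzastaurin and 0 in DMSO. ESRP1 was highest in paclitaxel, with 3 counts in the combination, 5 in paclitaxel, 4 in enzastaurin and 1 in DMSO. These markers are all under 20 counts. The summed level of the 6 epithelial markers was 390.44 FPKM in the combination, 379.66 in paclitaxel, 351.42 in enzastaurin and 382.17 in DMSO, nearly all from KRT8 and KRT18. Both of these had their lowest FPKM in enzastaurin, at 166.76 for KRT8 and 184.21 for KRT18. The part of epithelial cells in the FREM2 counts was not tested.

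**Figure D3:**
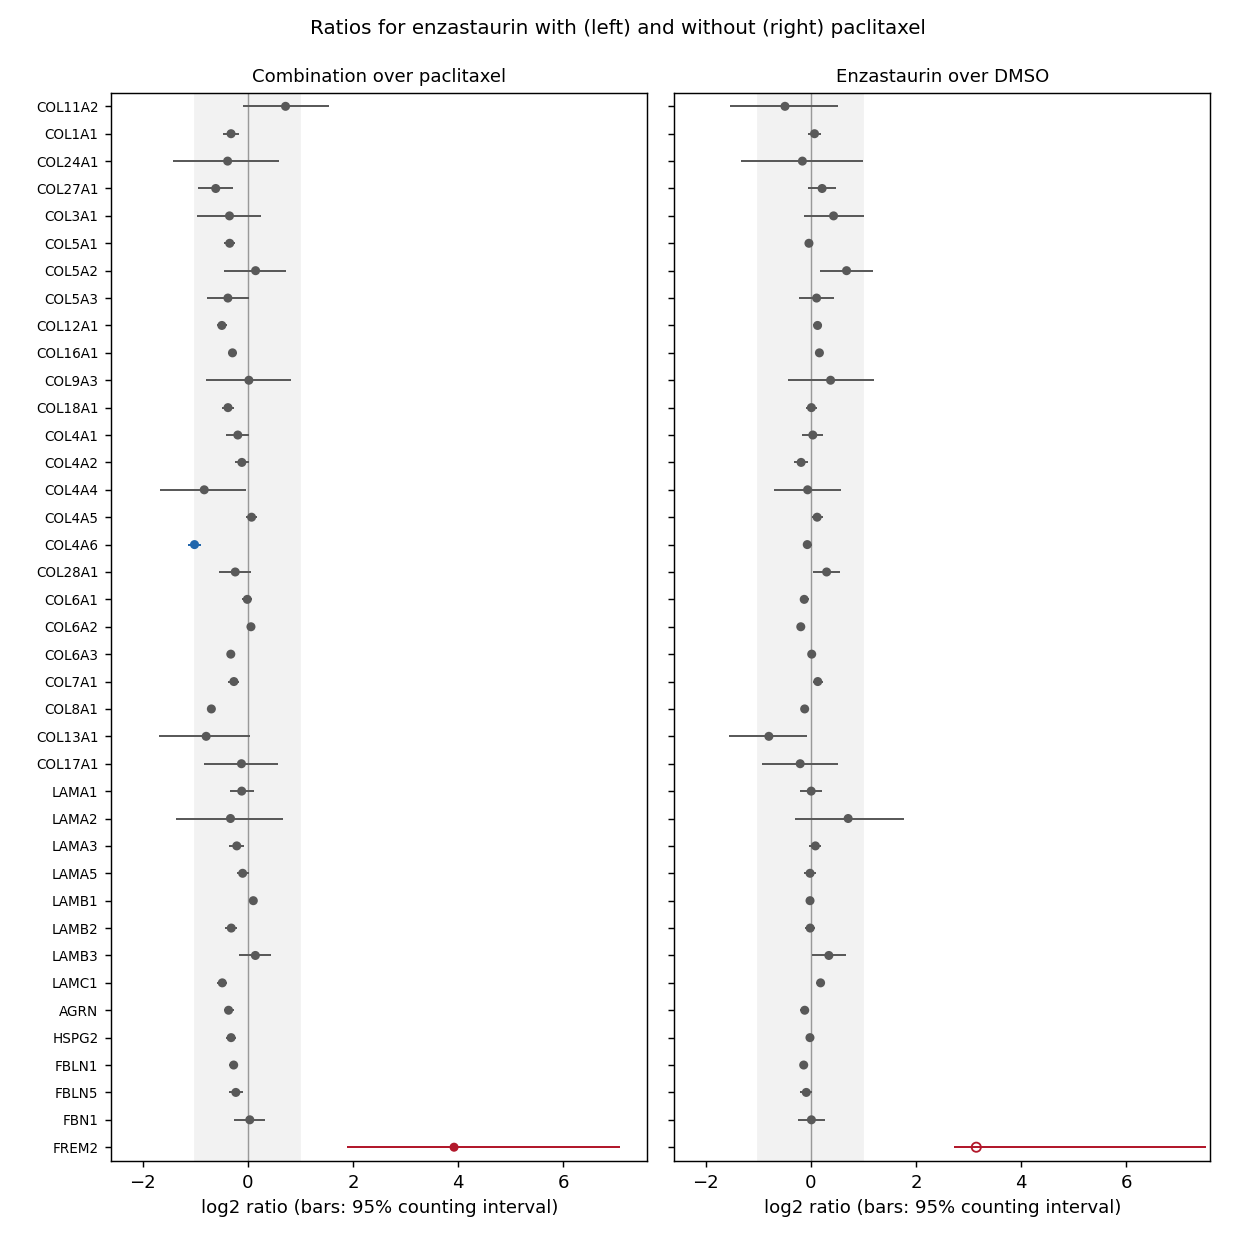
Log2 ratio of 39 matrix genes for combination over paclitaxel (left) and enzastaurin over DMSO (right), which share no library; bars are 95% counting intervals, the grey band marks ratios under 2-fold, blue and red mark genes past the size rule, and an open symbol is a ratio against 0 counts. FREM2 stands to the right in both panels, and COL4A6 stands at -1.01 in the left panel and near 0 in the right.

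Paclitaxel over DMSO asks how the resistant cells responded to 500 nM paclitaxel. None of the 40 genes passed the size rule in either direction, where 0.431% of all genes passed it downward and 0.811% upward. The median log2 ratio was -0.11, against -0.0008 over all genes. Ratios in this contrast were lower for genes richer in GC (Spearman -0.32) and higher for longer transcripts (0.12). The matrix genes are both longer and richer in GC, with a median of 55.7% against 48.2%. For this contrast too, the matrix-gene median with the trends removed is not given, so their part in it is not stated. The lowest ratios with narrow intervals were those of COL1A1, at -0.45 (-0.56 to -0.35), COL5A1, at -0.43 (-0.50 to -0.37), LAMA3, at -0.42 (-0.52 to -0.31), HSPG2, at -0.40 (-0.46 to -0.34), and COL12A1, at -0.38 (-0.45 to -0.32). Intervals lay wholly below 1 for 18 of 40 matrix genes (45%) and for 17.1% of all genes, and wholly above 1 for 2 (5%) and 15.9%. The matrix genes have more counts, which narrows their intervals. The 2 genes with intervals above equal levels were LAMB3, at 0.40 (0.11 to 0.70), and COL6A3, at 0.13 (0.092 to 0.16).

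Combination over enzastaurin measures paclitaxel in cells that also received enzastaurin and shares no library with the previous contrast. The median log2 ratio was -0.33 over the matrix genes and -0.020 over all genes, or -0.19 for the matrix genes without the length and GC trend. Of the 40 matrix genes 31 (77.5%) had a log2 ratio below 0, where 52% of all genes did. Intervals lay wholly below 1 for 26 matrix genes (65%) and for 32.5% of all genes. The 5 genes named as lowest in paclitaxel over DMSO were among these 26. COL1A1 was at -0.84 (-0.97 to -0.72), COL5A1 at -0.74 (-0.82 to -0.66), LAMA3 at -0.71 (-0.83 to -0.60), HSPG2 at -0.70 (-0.77 to -0.63) and COL12A1 at -1.01 (-1.09 to -0.93). COL1A1 was at 44.1 CPM in the combination, 55.0 in paclitaxel, 79.0 in enzastaurin and 75.2 in DMSO, so both paclitaxel libraries lay below both libraries without it. COL5A1 was at 111 CPM in the combination, 141 in paclitaxel, 185 in enzastaurin and 189.9 in DMSO and HSPG2 at 134 CPM in the combination, 167 in paclitaxel, 218 in enzastaurin and 220.2 in DMSO, with the same order of the libraries in pairs. The size rule was passed downward by 2 genes (COL4A6 and COL12A1), where 5.43% of all genes did, and 2 upward (COL11A2 among them), where 0.929% did. COL4A6 was at -1.22 (-1.32 to -1.12). COL11A2, a fibrillar collagen of cartilage, had 31 counts in the combination, 26 in paclitaxel, 16 in enzastaurin and 23 in DMSO and a ratio of 1.25 (0.33 to 2.22). COL12A1 passed only narrowly: with DESeq2 size factors it was at -0.992, short of 2-fold.

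A model with additive terms for paclitaxel and enzastaurin, fitted to the 4 libraries with 2 at each level of each drug, gives the one estimate of spread between libraries that the design allows. By edgeR's quasi-likelihood test with Benjamini-Hochberg adjustment over all genes, 0 of the 41 matrix genes that edgeR's filter kept were called for paclitaxel, with 10 at an unadjusted p under 0.05, and 0 for enzastaurin, with 4, of which FREM2 and FBN2 passed the filter through the libraries with that drug. Of all genes, 11.1% had an unadjusted p under 0.05 for paclitaxel and 5.79% for enzastaurin. Over all 12129 genes of this edgeR fit, the paclitaxel term called 0.0742% higher and 0.148% lower, and the enzastaurin term 0.00824% higher and 0% lower. DESeq2's Wald test also called 0 matrix genes for either drug. Its share over all genes is not given, so nothing is read from that count. In edgeR's fit COL12A1 was at -0.69 ± 0.16 (SE), adjusted p = 0.0691, for paclitaxel, lower with the drug in both pairs of libraries. COL4A6 was next in the same edgeR test, at -0.74 ± 0.18 (SE), adjusted p = 0.0739, for paclitaxel. COL1A1, at -0.64 ± 0.16 (SE), adjusted p = 0.0859, and COL5A1, at -0.58 ± 0.14 (SE), adjusted p = 0.0859, followed in that edgeR test. The fit has 1 residual degree of freedom, and any interaction of the drugs is counted as spread. Each term averages over the 2 pairs of libraries, so a difference in 1 pair alone can carry it. The enzastaurin term of COL4A6 was -0.53, although its log2 ratio was -0.067 in enzastaurin over DMSO and -1.01 in combination over paclitaxel. Without the filter on low counts, edgeR called COL12A1, COL1A1, COL4A6, COL5A1, HSPG2 and LAMA3 lower for paclitaxel, where 1.77% of all 15870 genes were called lower and 0.41% higher. For enzastaurin that fit called 1 matrix gene higher, FREM2, which had passed through the libraries with the drug, where 0.0504% of all genes were called higher and 0.365% lower; nothing is read from this call.

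The combination differed from DMSO most in the genes already named. Of 40 genes, 2 passed the size rule downward, where 5.53% of all genes did, and 2 upward, where 1.01% did. COL4A6 was 2.45-fold lower, at -1.29 (-1.39 to -1.19), and COL13A1, with 18 counts in the combination, 43 in paclitaxel, 27 in enzastaurin and 48 in DMSO, was at -1.09 (-1.96 to -0.28). FREM2 was at least 6.86-fold higher. The median log2 ratio was -0.27 over the matrix genes and -0.025 over all genes, or -0.11 for the matrix genes without the length and GC trend. COL8A1, at -0.82 (-0.88 to -0.76), COL12A1, at -0.88 (-0.96 to -0.80), COL5A1, at -0.78 (-0.85 to -0.70), and COL1A1, at -0.77 (-0.90 to -0.65), stayed under 2-fold. In all, 34 of the 40 genes passed the size rule in none of the 5 contrasts. The same count over all genes is not given, so nothing about the matrix genes is read from this one.

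For 39 genes, FREM2 with its 0 counts left aside, the ratio of combination over paclitaxel was set against that of enzastaurin over DMSO. The difference of the log2 ratios had a counting interval below 0 for 19 genes and above 0 for 5, or 48.7% and 12.8%, with a median of -0.30. Over 11789 genes chosen by the same count limits, these shares were 27.3% and 24.1%, with a median of -0.021, at counts that are lower on the whole. Ratios were lower for longer transcripts in combination over paclitaxel (Spearman -0.21) and higher for them in enzastaurin over DMSO (0.275). With GC content they fell in both (-0.077 and -0.45, in the same order). The matrix genes are longer and richer in GC, and the part of these trends in the difference was not tested. COL4A6 had the lowest value among genes with at least 100 counts in every library, -0.95 (-1.07 to -0.83). COL27A1, at -0.83 (-1.22 to -0.43), LAMC1, at -0.67 (-0.77 to -0.58), COL12A1, at -0.62 (-0.72 to -0.52), and COL8A1, at -0.58 (-0.65 to -0.50), followed. COL4A5 was at -0.049 (-0.17 to 0.075) and COL4A2 at 0.071 (-0.080 to 0.22). COL11A2, at 1.21 (0.020 to 2.40), COL6A2, at 0.25 (0.16 to 0.34), LAMB1, at 0.12 (0.041 to 0.20), and COL6A1, at 0.12 (0.014 to 0.22), were among those above 0. No replicate culture gives a spread for these differences.

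The genes that make, process and bind collagen and laminin were described by lists outside the 70 genes. Of 19 genes of collagen modification and folding, all measured, 2 passed the size rule downward and 0 upward in combination over paclitaxel, with a median log2 ratio of 0.12. Over all genes 4.17% passed downward and 0.574% upward, with a median of -0.024. Lists of this size, here and below, hold too few calls to set apart from such shares. The genes that passed were PLOD2, a lysyl hydroxylase that sets the type of cross-link, and P4HA2, a subunit of prolyl 4-hydroxylase, the enzyme that stabilises the triple helix. PLOD2 had 460 counts in the combination, 1371 in paclitaxel, 1569 in enzastaurin and 1236 in DMSO and a ratio of -1.11 (-1.27 to -0.96). P4HA2 had 257 counts in the combination, 730 in paclitaxel, 792 in enzastaurin and 759 in DMSO and a ratio of -1.04 (-1.25 to -0.84). In both the combination library was the lowest, and in enzastaurin over DMSO PLOD2 was at 0.38 (0.27 to 0.49). CRTAP, part of the prolyl 3-hydroxylase complex, was at -0.60 (-0.66 to -0.54).

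Of 11 measured genes of procollagen processing and cross-linking 0 passed, with a median of -0.30; by the interval end nearest to no change, the lowest were the cross-linking oxidases LOX, at -0.74 (-1.02 to -0.47), and LOXL2, at -0.51 (-0.59 to -0.43), while LOXL3, a further oxidase with few counts, was at -0.78 (-1.54 to -0.073). Of 16 measured receptors 1 passed downward and 0 upward, with a median of -0.16. ITGB4, the integrin beta chain of hemidesmosomes that binds the laminin of these junctions, had 159 counts in the combination, 765 in paclitaxel, 330 in enzastaurin and 496 in DMSO. Its log2 ratio was -1.80 (-2.06 to -1.55) in combination over paclitaxel, where LAMB3 was at 0.14 (-0.14 to 0.43) and LAMA3 at -0.21 (-0.33 to -0.088). Collagen export genes (9 measured) had a median of 0.12, elastic fibre partners (6 measured) one of -0.31 and the other basement membrane partners (5 measured) one of -0.16, with 0 genes past the rule in either direction. In paclitaxel over DMSO the one call in these lists was the collagen receptor gene DDR2, at 1.08 (0.17 to 2.06) with 23 counts in the combination, 35 in paclitaxel, 26 in enzastaurin and 15 in DMSO. In combination over enzastaurin P4HA2, PLOD2 and the integrin gene ITGA1, at -1.03 (-1.25 to -0.81), passed downward, in combination over DMSO P4HA2, PLOD2, LOXL3 and ITGB4 did, and in enzastaurin over DMSO no gene passed. Of all genes, 0.811% passed upward in paclitaxel over DMSO. Downward, 5.43% passed in combination over enzastaurin and 5.53% in combination over DMSO.

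**Figure D4:**
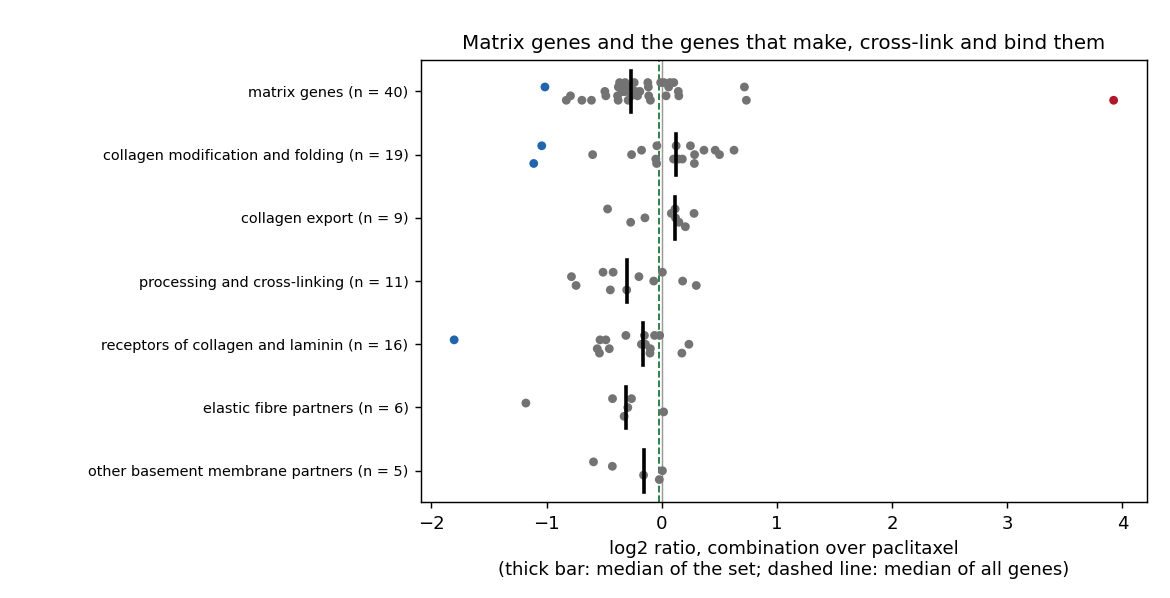
Log2 ratio of combination over paclitaxel for the 40 matrix genes and for each measured gene of 6 lists of related genes; a thick bar is the median of the set, the dashed line is the median of all genes, and blue and red mark genes past the size rule. The median is -0.27 for the matrix genes and 0.12 for collagen modification and folding, and the lowest point is ITGB4 at -1.80.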

How the data were processed

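Total RNA of the 4 libraries was reverse-transcribed from random primers; the instrument was a NovaSeq6000, per the labels' protocols. RSEM and the hg38 build are the tool and genome named by the authors, per the submitters' processing notes; no source used here gives versions, an aligner, an annotation release or a strand setting. The authors deposited expected counts per gene, not scaled for depth, of which 10.7% to 11.4% per library are not whole (tolerance 0), and FPKM values scaled for length and depth. Columns were assigned by the treatment that their names share with the labels, which left 0 without a sample.

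Before any ratio, counts were rounded to integers and scaled by library total times the TMM factor of edgeR 4.0.16 (0.988 to 1.006). Ratios have exact conditional (Clopper-Pearson) intervals, levels are in CPM, and the floor for 0 counts was 3 counts per library, 0.121 to 0.166 CPM. The protocols describe no molecular identifiers, and intervals and floors cover counting error only. The additive model used filterByExpr, glmQLFit and glmQLFTest; its common biological coefficient of variation was 0.134, with 1 residual and 19.1 prior degrees of freedom. DESeq2 1.42.0 gave other size factors and a Wald test. Both the size rule and the model were also run on simulated data, with an outcome that is not given here. Such runs do not measure the spread between cultures of this experiment, and no result rests on them. Coordinates, transcript length and GC content are those of GENCODE 29, available for all 40 measured genes; promoter windows from RefSeq matched 31 of the 40. Versions were scipy 1.17.1, numpy 2.4.6 and pandas 2.3.3 under Python 3.11.15, matplotlib 3.10.9 for plots, and R 4.3.3.

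The members, lists and contrasts were chosen with earlier results of these data known. Genes named with values were those past the size rule, the 3 highest by FPKM in each class, chains of the same trimer, genes nearest to the count minimum and at most 3 per list, taken by the interval end nearest to no change; others were named after their values were seen. 1 measured gene is counted but not reported here. Exons of 16 of the 40 genes overlap another GENCODE gene, and for 5 of them one in the table.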

Additional observations from a re-analysis of the deposited data

Results flagged for a closer look

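Some genes had ratios for 1 drug that lay on opposite sides of 0 with and without the other drug, with both counting intervals excluding 0; the differences between the ratios were not tested against the spread between cultures. For enzastaurin, COL12A1 was at -0.49 in combination over paclitaxel and 0.13 in enzastaurin over DMSO. LAMC1 was at -0.49 and 0.19 in the same order of contrasts. COL16A1 was at -0.29 and 0.16, and COL7A1, of the anchoring fibrils of skin, at -0.27 and 0.13. For paclitaxel, COL6A3 was at -0.22 in combination over enzastaurin and 0.13 in paclitaxel over DMSO, while COL6A2 was at 0.069 and -0.18. All 6 genes had at least 100 counts in every library, and their ratios stayed under 2-fold, apart from COL12A1 in combination over enzastaurin. The same count over all genes is not given, so nothing about the matrix genes is read from this list. Ratios fell with transcript length in combination over paclitaxel (Spearman -0.21) and over enzastaurin (-0.24). They rose with it in enzastaurin over DMSO (0.275) and paclitaxel over DMSO (0.12). The part of these trends in the 6 genes was not tested.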

How the results depend on the processing

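No paired analysis was possible because there is a single library for each treatment, and for the same reason no library could be left out. Counts of matrix genes past the size rule are small, so single genes move them. In combination over paclitaxel the count lower was 1 (all genes 4.17%). It was 0 with DESeq2 size factors (all genes 4.0%), the length and GC trend removed (4.05%) or FPKM and a pseudocount of 1 (1.41%). At a 1.5-fold limit it was 4 of 40, where 11.1% of all genes passed. In combination over enzastaurin the count lower was 2 (all genes 5.43%). It was 1 with DESeq2 size factors (all genes 5.2%), the trend removed (5.22%) or FPKM with a pseudocount of 0.1 (4.99%) or 1 (2.05%). At 1.5-fold it was 14 of 40, where 13.3% of all genes passed. In combination over DMSO the count lower was 2 (all genes 5.53%). It was 1 with a minimum of 100 counts (all genes 4.29%), the trend removed (5.12%) or FPKM with a pseudocount of 1 (2.3%). At 1.5-fold it was 10 of 40, where 13.2% of all genes passed. Counts higher rest on low-count genes. They were 1, 1, 2 and 2 in enzastaurin over DMSO and in combination over paclitaxel, enzastaurin and DMSO (all genes 0.439%, 0.574%, 0.929% and 1.01%). All were 0 with a minimum of 100 counts (all genes 0.0387% to 0.358%) or FPKM with a pseudocount of 1 (0.0676% to 0.321%). With a pseudocount of 0.1 they were 0, 0, 1 and 1 (all genes 0.524%, 0.524%, 0.92% and 0.92%). Without a count minimum they were 2, 2 and 4 in enzastaurin over DMSO and in combination over paclitaxel and DMSO (all genes 0.762%, 1.05% and 1.75%). At 1.5-fold both of the first were 2 (all genes 1.14% and 1.9%) and 1 gene was lower in enzastaurin over DMSO (all genes 1.17%). Medians with the trend removed were -0.14 in combination over paclitaxel (otherwise -0.27), -0.19 over enzastaurin (-0.33) and -0.11 over DMSO (-0.27). In the additive model the filter decided the calls. Without it edgeR called 6 genes lower for paclitaxel (all genes 1.77%) and 1 higher for enzastaurin (all genes 0.0504%). The latter was FREM2, which reaches the count minimum only in libraries with the drug. With the filter 0 were called (all genes 0.148% lower for paclitaxel and 0.00824% higher for enzastaurin). The cause of these shifts was not tested. Single ratios of the 25 genes tracked moved beyond their counting interval for 0 of 124 values with another scaling, 15 of 124 with FPKM and a pseudocount of 0.1, 24 of 124 with 1, and 54 of 124 with the trend removed, and no called ratio changed sign.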

Other observations

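The genes nearest to the count minimum were FREM2, LAMA2 and COL24A1, with at most 26, 26 and 27 counts, just inside it, and FBN2, COL1A2 and COL11A1, with at most 13, 12 and 12, just outside. FBN2, the fibrillin of embryonic microfibrils, had 10 counts in the combination, 3 in paclitaxel, 13 in enzastaurin and 1 in DMSO, so most of its counts too were in the libraries with enzastaurin. COL11A1 had 2 counts in the combination, 2 in paclitaxel, 12 in enzastaurin and 5 in DMSO, and COL1A2 had 3 counts in the combination, 2 in paclitaxel, 12 in enzastaurin and 5 in DMSO, both highest in enzastaurin alone. Of the 30 genes under the minimum, 5 had 0 counts in every library (COL6A5, COL19A1, FBLN7, FREM1 and FREM3), which allows up to 0.121 to 0.166 CPM.

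Promoter windows were found for 31 of the 40 measured genes, in 41 windows. A GC box was present in 68.3% of these windows and 42.6% of all windows, a CCAAT box in 29.3% and 32%, the TEAD motif in 9.76% and 11.9%, and the AP-1 motif in 4.88% and 4.2%. These are descriptions of letters in the windows, and no test was made of them.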
